A study of Mus musculus with 2 samples.

Results

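The Sonic hedgehog pathway was followed through 10 of the 32285 genes counted in single nuclei of the mouse cerebellum at postnatal day 1 (P1). The genes were found by symbol and comprise the ligand Shh, the receptor Ptch1, the transducer Smo, the coreceptors Boc, Cdon and Gas1, the decoy receptor Hhip, and the transcription factors Gli1, Gli2 and Gli3. All 10 had unique molecular identifiers (UMIs, each a counted transcript) in both libraries. The control library came from Cre-negative littermates, for which the genotype label reads Tox3f/f and the library name Tox3f/f or Tox3f/+. The other library is labelled cKO (conditional knockout) and came from Nestin-cre;Tox3f/f mice, in which a Tox3 allele flanked by loxP sites meets a Cre that acts in neural precursors and their progeny. Each library pooled 12 cerebella, so there was 1 library per group, no test between groups was possible, and every interval given is a 95% interval that covers counting error only.

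In this pathway the secreted ligand binds Ptch1, which otherwise holds Smo inactive. Active Smo, acting in the primary cilium, turns the Gli factors into transcriptional activators, and Gli1, Ptch1 and Hhip are themselves classical target genes that report on the activity of the pathway. In the neonatal cerebellum Purkinje cells make the ligand, and granule neuron progenitors (GNPs) of the external granule layer and Bergmann glia receive it; the ligand is the main mitogen of the progenitors.

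After filters, 4667 control nuclei and 6555 nuclei of the cKO-labelled library remained, with medians of 3978 and 4025 UMIs per nucleus. The barcodes of 9 nuclei occurred in both libraries. The targeted gene Tox3 had no fewer UMIs in the cKO-labelled library (2127 in control and 3571 in the other, or 104 and 118 per 1000000 UMIs), so the counts do not check its label; these counts cover the whole gene, and the deleted part was not separated. Atoh1, the defining transcription factor of the progenitors, had 42 UMIs in control and 3 in the cKO-labelled library. Clusters were named from marker genes with the ending "-like", and none of the 10 members took part in the clustering. GNP-like nuclei numbered 527 in control and 120 in the cKO-labelled library, that is 11.3% and 1.83% of nuclei. Low-depth droplets made up 21.6% and 10.3%, almost all of them from 1 cluster per library. The glial cluster that carried parenchymal astrocyte markers also carried Bergmann glia markers and is called cluster 10.

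Over the whole libraries, 4 of the 10 members were lower by 1.5-fold or more in the cKO-labelled library and none was higher by that much. The same fold was passed downward by 5.81% and upward by 5.26% of the 17602 genes that reached 50 UMIs in the pair of libraries. Levels are given as UMIs per 1000000 UMIs of the same library or class (CPM). Gli2 stood at 112 CPM in control and 49.2 in the cKO-labelled library, a ratio of 0.44 (interval 0.412 to 0.47). Gas1 stood at 7.08 and 3.58 CPM (ratio 0.506), Boc at 156 and 93.4 (0.598) and Gli1 at 13.2 and 8.68 (0.657). Gli1 lay short of 1.5-fold, leaving 3 members lower, under median-of-ratios scaling, with each nucleus at 1000 UMIs, and without nuclei under 1000 genes or without low-depth droplets. Ptch1 (ratio 0.765), Gli3 (0.835), Smo (0.868) and Shh (0.875) were lower by less, and the interval for Shh reached from 0.6 to 1.28. Cdon (1.25, interval 1.14 to 1.37) and Hhip (1.17, interval 1.03 to 1.33) were higher. The median log2 ratio of the 10 members was -0.32, against -0.02 over all genes with enough UMIs.

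The whole-library ratio mixes the level within nuclei with the number of nuclei of each kind. When the level of each cluster in the cKO-labelled library was weighted by the UMIs that cluster held in control, the ratio of Gli2 became 0.86 and that of Gli1 0.991. Ptch1 then stood above control (1.14) instead of below, and Hhip stood at 0.975 instead of above. Boc (0.671) and Gas1 (0.416) remained lower under this weighting, and Gli3 (0.822) and Cdon (1.24) hardly moved. Shh went from 0.875 to 1.14, which lay within the counting interval of its measured ratio, and Smo to 0.948. The weighted ratios have no interval of their own. GNP-like nuclei had held 59.3% of all Gli2 UMIs in control and held 18.9% in the cKO-labelled library. For Boc these shares were 41.5% and 3.73%, for Gli1 45.8% and 12.6%, and for Ptch1 32.3% and 9.47%. Bergmann glia-like nuclei were the largest source of Gli1 (45%), Gli2 (34.5%) and Gli3 (55.2%) UMIs among the named classes of the cKO-labelled library.

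**Figure D1:**
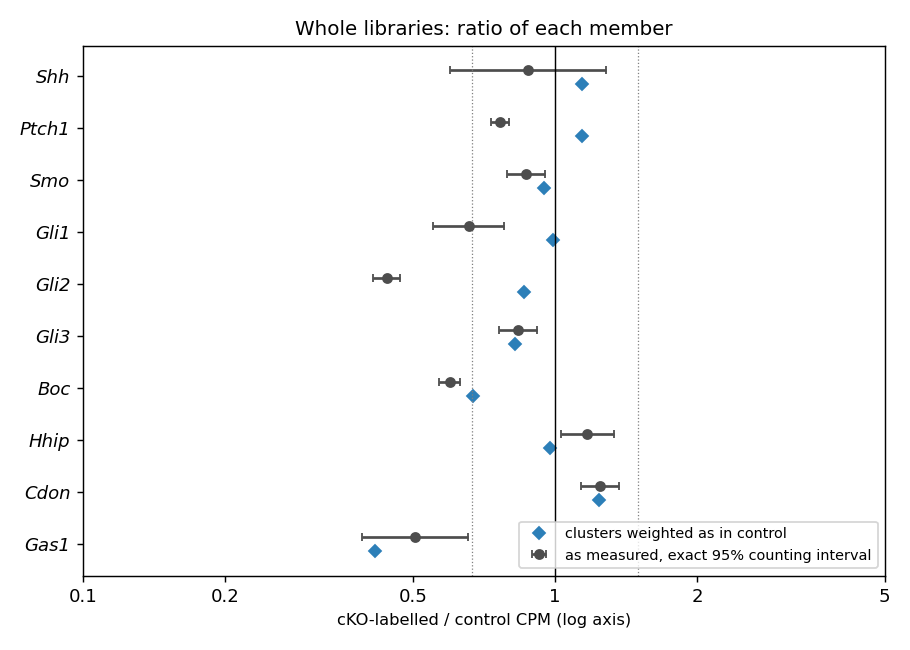
Ratio of the level in the cKO-labelled library to that in control for each of the 10 members over whole libraries, on a log axis; circles with bars are the measured ratio with its exact 95% counting interval, diamonds the ratio with clusters weighted as in control, and dotted lines mark 1.5-fold in either direction. The Gli2 circle at 0.44 and its diamond at 0.86 lie farthest apart, while Boc and Gas1 stay low in both.

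Shh (ENSMUSG00000002633, chromosome 5, 28456815 to 28467256, minus strand, GRCm38), the secreted ligand, was detected mainly in Purkinje cell-like nuclei. Purkinje cell-like nuclei held 84.6% of the 52 Shh UMIs of control and 70.1% of the 67 of the cKO-labelled library. Their level was 15 CPM in control (44 UMIs in 292 nuclei) and 7.8 CPM in the cKO-labelled library (47 UMIs in 720 nuclei), a ratio of 0.522 (interval 0.339 to 0.806). Of the 6 members with at least 50 UMIs in this class, Shh alone passed 1.5-fold. By that fold 4.4% of 11836 genes were lower there and 2.32% higher. Ptch1 (0.674) and Gli2 (0.688) lay just short of the fold, while Smo (0.867), Boc (0.961) and Cdon (1.01) moved less. Hhip (0.31, from 30 and 19 UMIs) did not reach the UMI minimum.

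At least 1 Shh UMI was found in 12.7% (9.08 to 17.0) of control Purkinje cell-like nuclei and in 6.25% (4.59 to 8.27) of those of the cKO-labelled library, at median depths of 9282.5 and 7943 UMIs. With each nucleus brought to 1000 UMIs, the shares were 1.44% and 0.83%. No microglia-like nucleus, a type that should lack the gene, had a Shh UMI (0 of 54 and 0 of 151, which allows shares of up to 5.56% and 1.99%; median depths of 2917.5 and 2546 UMIs). Between the clusters of the class, the Purkinje cell-like cluster 9 went from 22.6 to 7.96 CPM (27 and 22 UMIs, ratio 0.353), and cluster 6 from 9.74 to 7.67 (17 and 25 UMIs, 0.788, interval 0.409 to 1.55). The 10 Purkinje cell markers summed to a ratio of 0.943 in this class, and all 10 were detected in both libraries. In the other named classes Shh had 0 to 5 UMIs per library, and their order was not resolved.

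Ptch1 (ENSMUSG00000021466, chromosome 13, 63508328 to 63573598, minus strand), the receptor and a target gene of the pathway, was highest in GNP-like nuclei and next in Bergmann glia-like nuclei among the named classes of both libraries, and the intervals of these levels did not overlap. The unnamed cluster 10 stood at 519 and 477 CPM (262 and 526 UMIs), with an interval that overlapped that of GNP-like nuclei in control and that of Bergmann glia-like nuclei in the cKO-labelled library. In GNP-like nuclei the level was 545 CPM (1132 UMIs) in control and 853 CPM (374 UMIs) in the cKO-labelled library. The ratio was 1.56 (1.39 to 1.76). Of the 6 members with at least 50 UMIs there, Ptch1 alone was higher by 1.5-fold or more, against 9.17% of 7972 genes. The level was higher in both clusters that made up the class, by 1.48 in the dividing cluster 16 and by 1.68 in cluster 18. A Ptch1 UMI was present in 74% of 527 and 82.5% of 120 GNP-like nuclei, at median depths of 3688 and 3455.5, and in 13% and 9.27% of microglia-like nuclei. At 1000 UMIs per nucleus the GNP-like shares were 37.7% and 50.4%.

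Outside the progenitors Ptch1 did not move in 1 direction. It stood at 387 and 467 CPM in Bergmann glia-like nuclei (ratio 1.21, 1.07 to 1.36) and at 144 and 142 CPM in GN-like nuclei, the postmitotic granule neurons (0.991, 0.9 to 1.09). It was lower in Purkinje cell-like nuclei (53.7 and 36.2 CPM, ratio 0.674) and in glutamatergic CN-like nuclei of the cerebellar nuclei (49.7 and 30.1 CPM, 0.604). Of the 2 members with at least 50 UMIs in the CN-like class, Ptch1 alone passed 1.5-fold, and 4.73% of genes there were lower by it. In the Purkinje cell-like class the 12 GNP markers summed to 256 and 138 CPM and the 10 GN markers to 464 and 230 CPM, and the part of these transcripts in the Ptch1 ratio was not tested.

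The annotated Ptch1 and Gli2 start sites are shown because, of the members with at least 50 UMIs in GNP-like nuclei, the ratios of these genes differed most between whole libraries and that class. RefSeq windows (GRCm38.p6) of 250 bases before to 50 after the start were at hand for 7 of the 10 members, namely Ptch1, Smo, Cdon, Gas1, Hhip, Gli2 and Gli3. The Gli consensus GACCACCCA, searched on both strands, was in 0 of these 7 windows and in 0.253% of all 32851 windows. Its shorter core ACCACCC, part of the consensus, was in 1 of the 7 (Gli2) and in 4.61% of all windows, on the strand opposite to transcription, with the match beginning 205 bases before the Gli2 start. The 250 bases before each start are printed in the direction of transcription, and capitals mark the core as it reads on this strand:
Gli2, chr1:119053620-119053869, minus strand: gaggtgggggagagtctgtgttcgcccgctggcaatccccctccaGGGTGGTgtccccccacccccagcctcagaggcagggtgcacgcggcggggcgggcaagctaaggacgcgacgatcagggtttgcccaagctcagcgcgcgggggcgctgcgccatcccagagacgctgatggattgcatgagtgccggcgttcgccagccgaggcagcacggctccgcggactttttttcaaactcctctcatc
Ptch1, chr13:63565736-63565985, minus strand: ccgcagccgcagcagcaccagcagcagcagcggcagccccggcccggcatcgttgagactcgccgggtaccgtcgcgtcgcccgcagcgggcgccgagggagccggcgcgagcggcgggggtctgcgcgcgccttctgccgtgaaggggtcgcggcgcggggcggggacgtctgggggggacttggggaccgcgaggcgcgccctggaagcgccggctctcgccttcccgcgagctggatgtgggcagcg
The Ptch1 window lies inside the gene as GENCODE draws it, whose longest form begins farther upstream. Of the 250 bases before the start, 67.2% were G or C in Gli2 and 78.4% in Ptch1. A match is a description of these letters and says nothing of binding.

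Smo (ENSMUSG00000001761, chromosome 6, 29735503 to 29761365, plus strand), the transducer held in check by Ptch1, differed little between the libraries. Its control level was 93 CPM in GNP-like, 90.6 in GABAergic interneuron-like and 84.3 in Bergmann glia-like nuclei, and these neighbours were not separated by their intervals. In the cKO-labelled library the same classes stood at 103, 78.8 and 72.7 CPM. The ratio in GNP-like nuclei was 1.1 (0.779 to 1.53), in GN-like nuclei 0.981 and in Bergmann glia-like nuclei 0.862 (0.658 to 1.13). Microglia-like nuclei had 69.1 and 80.7 CPM of Smo from 12 and 35 UMIs, so the levels of the classes above were not told apart from that of microglia-like nuclei.

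Boc (ENSMUSG00000022687, chromosome 16, 44485049 to 44558897, minus strand), a cell-surface coreceptor that helps present the ligand to Ptch1, was the member with the lowest ratio in GNP-like nuclei among those with at least 50 UMIs. Its level there was 640 CPM (1329 UMIs) in control and 239 CPM (105 UMIs) in the cKO-labelled library, a ratio of 0.374 (0.304 to 0.456). Of the 6 members with as many UMIs in this class, Boc and Gli3 were lower by 1.5-fold or more. There 15.8% of genes were lower by that fold. Boc was lower in both GNP-like clusters, at 0.417 in cluster 16 and 0.289 in cluster 18. A Boc UMI was found in 78.7% (75.0 to 82.2) of control and 47.5% (38.3 to 56.8) of the other GNP-like nuclei, and in 3.7% of 54 and 0 of 151 microglia-like nuclei, where a count of 0 allows up to 1.99%. At 1000 UMIs per nucleus the GNP-like shares were 44% and 19.5%.

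Within the GN-like class the lower level of Boc was found in 1 of 3 clusters. In the GN-like cluster 7, which had the highest Gli2 of the GN-like clusters, Boc went from 144 to 72.5 CPM (ratio 0.503, 0.352 to 0.709). In the GN-like clusters 4 and 0 the ratios were 1.03 (0.823 to 1.28) and 0.914 (0.778 to 1.07). Outside the class, the unnamed cluster 2, which carried granule neuron markers, went from 106 to 73.2 CPM (0.688, 0.555 to 0.852). Among the named classes Purkinje cell-like nuclei were second in both libraries, with 176 and 170 CPM (0.961), and Bergmann glia-like nuclei had 131 and 137 CPM (1.05). The unnamed cluster 10 (374 and 309 CPM) stood above Purkinje cell-like nuclei in both libraries, and cluster 21 (185 and 283 CPM) in the cKO-labelled library. In control the level of cluster 21 came from 41 UMIs, and its interval overlapped that of Purkinje cell-like nuclei. Boc in GNP-like and in Bergmann glia-like nuclei thus had intervals of the ratio that did not meet (0.304 to 0.456 and 0.85 to 1.29). This difference has no replicate check.

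Cdon (ENSMUSG00000038119, chromosome 9, 35421128 to 35507652, plus strand), the coreceptor most closely related to Boc, had another distribution. It stood at 77.5 and 58.4 CPM in glutamatergic CN-like and at 69 and 69.7 CPM in Purkinje cell-like nuclei, whose control intervals overlapped. In GNP-like nuclei it had 12 and 4 UMIs. Cdon was higher in GN-like nuclei (19 and 26.6 CPM, ratio 1.4, 1.09 to 1.8) and in the unnamed cluster 2 (60.6 and 119 CPM, 1.97, 1.57 to 2.48), which carried granule neuron markers with Slc17a6 among its leading genes. Of the 3 members with enough UMIs in cluster 2, Cdon alone passed 1.5-fold, with 5.42% of genes higher by that fold. In GABAergic interneuron-like nuclei Cdon was lower, at 10.2 and 4.24 CPM (27 and 23 UMIs, ratio 0.414).

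Gas1 (ENSMUSG00000052957, chromosome 13, 60174405 to 60177365, minus strand), a membrane-anchored coreceptor, had few UMIs, 145 in control and 108 in the cKO-labelled library. GNP-like nuclei held 46 of them in control (22.2 CPM) and 3 in the cKO-labelled library (6.84 CPM), a ratio of 0.309 with a wide interval of 0.0614 to 0.96. GN-like nuclei held 21 and 3 (ratio 0.134, 0.0255 to 0.448). In Bergmann glia-like nuclei, with 17 and 27 UMIs, the ratio was 0.773 and the interval reached from 0.406 to 1.51. Low-depth droplets held 15.2% of the Gas1 UMIs of control, and Gas1 had no UMI in microglia-like nuclei.

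**Figure D2:**
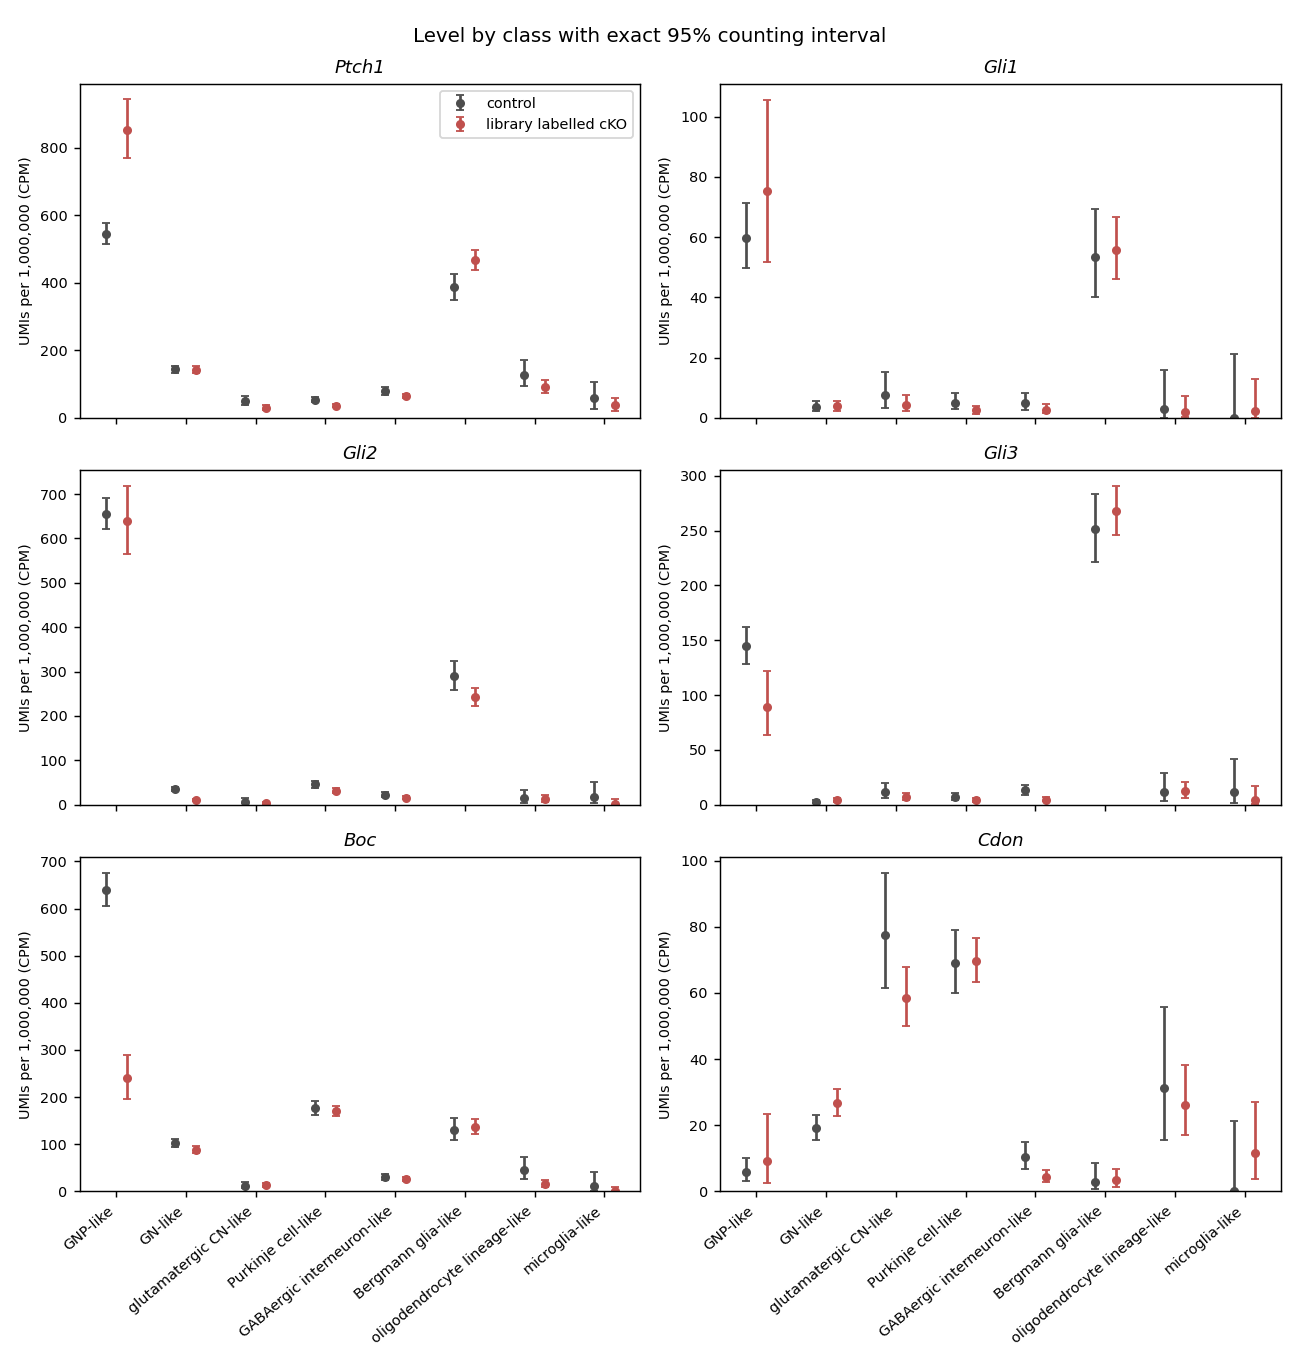
Level of Ptch1, Gli1, Gli2, Gli3, Boc and Cdon in named classes with at least 20 nuclei per library; each vertical axis gives CPM from 0, points are the sum over all nuclei of the class in 1 library and bars the exact 95% counting interval. In GNP-like nuclei Ptch1 stands at 545 and 853 and Boc at 640 and 239, while Gli2 at 655 and 638 overlaps.

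Gli1 (ENSMUSG00000025407, chromosome 10, 127329882 to 127341974, minus strand), the activator whose transcription depends on the pathway, was concentrated in GNP-like and Bergmann glia-like nuclei. It stood at 59.7 and 75.2 CPM in GNP-like nuclei (124 and 33 UMIs) and at 53.3 and 55.7 CPM in Bergmann glia-like nuclei (55 and 118 UMIs). These classes were not separated by their intervals in either library. Every other named class with at least 20 nuclei per library was at 7.65 CPM or less. The unnamed cluster 21 stood at 9.04 and 24 CPM (2 and 9 UMIs) and cluster 10 at 11.9 and 13.6 CPM (6 and 15 UMIs). Low-depth droplets had 24.9 and 11.7 CPM (17 and 5 UMIs). The ratio was 1.26 (0.831 to 1.86) in GNP-like and 1.04 (0.75 to 1.47) in Bergmann glia-like nuclei, so that Gli1 was not distinguishable between the libraries within either class at this depth. A Gli1 UMI was found in 19% and 21.7% of GNP-like nuclei and in 18% and 17.4% of Bergmann glia-like nuclei, against 0 of 54 (which allows up to 5.56%) and 0.662% of 151 microglia-like nuclei.

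Gli2 (ENSMUSG00000048402, chromosome 1, 118834132 to 119053619, minus strand), the main activator downstream of Smo, was highest in GNP-like nuclei at nearly the same level in both libraries. The values were 655 CPM (1359 UMIs) and 638 CPM (280 UMIs), a ratio of 0.975 (0.854 to 1.11). The 2 GNP-like clusters gave 0.899 and 1.11, and a Gli2 UMI was found in 78.7% and 79.2% of the nuclei. Gli2 thus had a whole-library ratio of 0.44 and a ratio near 1 in the class that held most of its control UMIs.

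In GN-like nuclei Gli2 went from 34.5 CPM (196 UMIs) in control to 9.74 CPM (59 UMIs), a ratio of 0.282 (0.207 to 0.379). Of the 5 members with at least 50 UMIs in this class, Gli2 alone was lower by 1.5-fold. Of 12283 genes there, 3.65% were lower and 3.39% higher. The share of GN-like nuclei with a Gli2 UMI was 10.1% (8.43 to 12.1) in control and 2.65% (1.88 to 3.61) in the cKO-labelled library, at median depths of 4665.5 and 3958 UMIs. The highest GN-like level was in cluster 7, at 188 CPM (153 UMIs) and 72.5 CPM (48 UMIs), a ratio of 0.384. Clusters 4 and 0 were lower, with 16.4 and 5.19 CPM in control and 2.48 and 1.85 CPM in the other library, so Gli2 was lower in all 3 GN-like clusters. Cluster 7 held 229 of the 1114 control and 224 of the other 1436 GN-like nuclei. The 12 GNP markers summed to 769 CPM in control and 619 CPM in the cKO-labelled library in this class (ratio 0.805), with Atoh1 at 9 and 0 UMIs. Gli2 also stood at 76 and 39.8 CPM in low-depth droplets and at 17.3 and 2.31 CPM in microglia-like nuclei (3 and 1 UMIs). The part of free RNA in the Gli2 ratio of GN-like nuclei was not tested.

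**Figure D3:**
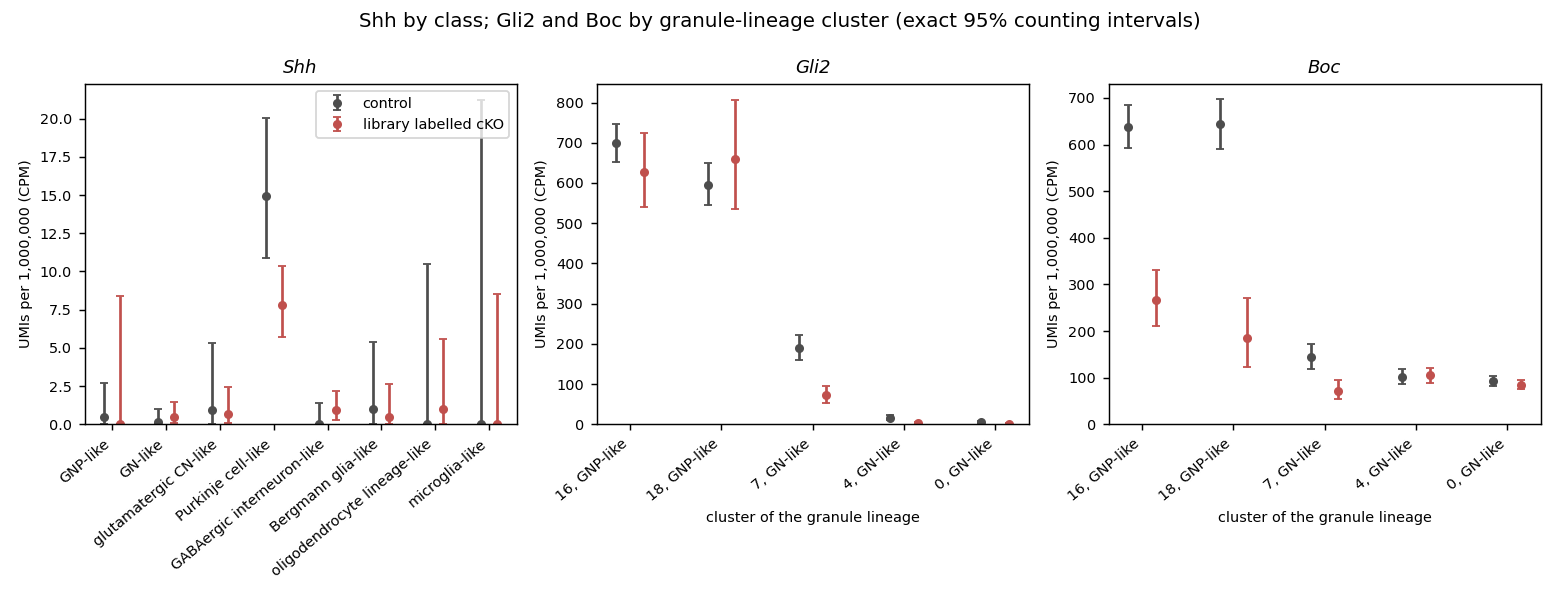
Level of Shh by named class (left) and of Gli2 and Boc in the 5 clusters of the granule lineage (middle and right); vertical axes give CPM, points are sums over a class or cluster in 1 library, and bars are exact 95% counting intervals. Shh stands out in Purkinje cell-like nuclei (15 and 7.8), and in cluster 7 both Gli2 (188 and 72.5) and Boc (144 and 72.5) are lower in the cKO-labelled library.

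In cluster 2, which carried granule neuron markers, Gli2 had 26 and 5 UMIs (14.3 and 2.23 CPM, ratio 0.156, 0.0467 to 0.412). Gli2 stood at 290 and 242 CPM in Bergmann glia-like nuclei (ratio 0.835, 0.723 to 0.967), at 196 and 190 CPM in cluster 10 (0.967), and at 45.9 and 31.6 CPM in Purkinje cell-like nuclei (0.688). Within the Purkinje cell-like class the gene was mostly in cluster 6 (67 and 55.8 CPM), with 15 and 2.9 CPM in cluster 9 (18 and 8 UMIs, ratio 0.193, 0.0725 to 0.465). Among the classes and clusters compared, the Gli2 ratio had an interval above 1 in 1 place. This was the unnamed dividing cluster 21, led by Pax2 and Tfap2b among others. Gli2 stood there at 113 and 224 CPM (25 and 84 UMIs, ratio 1.98, 1.26 to 3.23). There Gli2 and Boc (185 and 283 CPM, ratio 1.52) were 2 of 5 members with enough UMIs past 1.5-fold, with 6.36% of genes higher.

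Gli3 (ENSMUSG00000021318, chromosome 13, 15463235 to 15730026, plus strand), which acts mainly as a repressor of target genes when the ligand is absent, was highest in Bergmann glia-like nuclei among the named classes with at least 20 nuclei per library. Its level there was 251 and 268 CPM (ratio 1.07, 0.919 to 1.24). GNP-like nuclei, the next of these classes, had 145 CPM (300 UMIs) in control and 88.9 CPM (39 UMIs) in the cKO-labelled library, a ratio of 0.615 (0.429 to 0.861). The ratio was 0.627 in cluster 16 and 0.427 in cluster 18, the latter from 85 and 6 UMIs. Cluster 10 had 208 and 210 CPM. Gli3 was also lower in GABAergic interneuron-like nuclei, from 12.9 to 4.42 CPM (34 and 24 UMIs, ratio 0.343), where Gli3 and Cdon were 2 of 7 members with enough UMIs past the fold and 2.6% of genes were lower by it.

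Hhip (ENSMUSG00000064325, chromosome 8, 79965851 to 80058006, minus strand), a membrane protein that binds the ligand and so limits its reach, was highest among the named classes in Bergmann glia-like nuclei. Its level there was 83.3 CPM (86 UMIs) and 112 CPM (238 UMIs), a ratio of 1.35 (1.05 to 1.74). None of the 7 members with enough UMIs in Bergmann glia-like nuclei passed 1.5-fold, while 4.32% of genes there were lower and 5.59% higher by it. In GNP-like nuclei it had only 7 and 8 UMIs (3.37 and 18.2 CPM, ratio 5.41, 1.71 to 17.5). In Purkinje cell-like nuclei it had 30 and 19 UMIs (10.2 and 3.16 CPM, ratio 0.31).

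Among all clusters Hhip was highest in the unnamed cluster 21 in both libraries, at 194 and 213 CPM (1.1). Cluster 10 had 156 and 88 CPM (79 and 97 UMIs, ratio 0.563, 0.414 to 0.767). It stood above Bergmann glia-like nuclei in control and below them in the cKO-labelled library. Of the 6 members with enough UMIs in cluster 10, Hhip alone passed 1.5-fold, and 5.1% of genes were lower by it. A finer resolution was looked at after this Hhip ratio was seen. There cluster 10 held a small group of 20 control nuclei and 66 of the cKO-labelled library, led by Nphs1, Kirrel2 and Hhip itself. This group carried 886 and 415 CPM of Hhip (74 and 84 UMIs, ratio 0.468), and the rest of cluster 10 only 9.56 and 14.4 CPM. Boc in the small group stood at 383 and 153 CPM (0.399), Gli2 at 371 and 341 CPM (0.918) and Ptch1 at 515 and 583 CPM (1.13).

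In further classes the members had few UMIs or moved little. Oligodendrocyte lineage-like nuclei had 128 and 92.3 CPM of Ptch1 (45 and 92 UMIs, ratio 0.724, 0.502 to 1.06), and Boc there had 16 and 15 UMIs (45.4 and 15.1 CPM, 0.332). In GABAergic interneuron-like nuclei Ptch1 stood at 78.8 and 64.1 CPM (0.813), Hhip at 30.3 and 21.6 CPM (0.711) and Gli2 at 21.2 and 15.1 CPM (0.712). In glutamatergic CN-like nuclei Boc had 12 and 36 UMIs and Gli2 7 and 9. In microglia-like nuclei every member but Smo and Ptch1 had 5 UMIs or fewer per library.

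**Figure D4:**
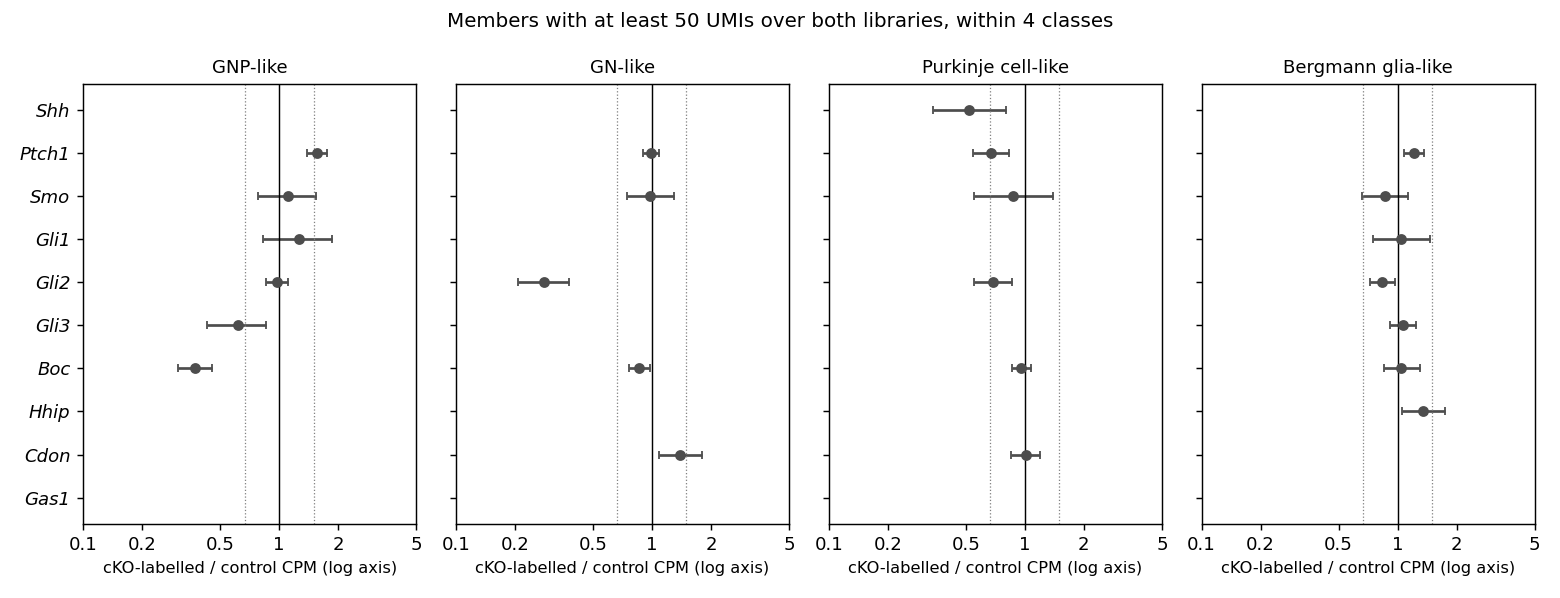
Ratio of the level in the cKO-labelled library to that in control, on a log axis, for the members that reached 50 UMIs in 4 classes; bars are exact 95% counting intervals and dotted lines mark 1.5-fold. In GNP-like nuclei Ptch1 (1.56) lies above and Boc (0.374) and Gli3 (0.615) below the dotted lines, in GN-like nuclei Gli2 (0.282) and in Purkinje cell-like nuclei Shh (0.522) lie below, and in Bergmann glia-like nuclei no point passes them.

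The GNP-like nuclei of the libraries also differed in their markers, and these values stand beside every ratio within the class. The 12 GNP markers summed to 4026 CPM in control and 2430 CPM in the cKO-labelled library, a ratio of 0.604, with Atoh1 and Fgfr4 at 0 in the latter. Atoh1 had only 16 UMIs in the control class, and the interval of its ratio there (0 to 1.23) held 1. The 10 GN markers summed to 3291 and 4462 CPM (1.36), all detected in both, and the 6 Bergmann glia markers to 456 and 618 CPM (1.36). The 10 Purkinje cell markers summed to 2149 and 3201 CPM (1.49, with Ppp1r17 at 0 in both libraries and Skor2 at 0 in the cKO-labelled one), and the 7 parenchymal astrocyte markers to 332 and 568 CPM (1.71, with Gfap and Agt at 0). When GNP-like nuclei with a UMI of Pax2, Gad1, Gdf10, Aqp4 or Sox10 were left out, which kept 458 and 85 nuclei, the ratios were 1.47 for Ptch1, 0.331 for Boc, 0.467 for Gli3 and 1 for Gli2. The part of the shift within the granule markers in these ratios was not tested.

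A further 42 genes of the pathway were followed as a list: the other ligands and the proteins that release them, the receptors and ciliary proteins that carry the signal, and the targets known from granule progenitors. Over whole libraries 5 of the 39 with enough UMIs were lower by 1.5-fold and 1 was higher, against 5.81% and 5.26% of all genes. Among the lower genes were Mycn (20 and 9.38 CPM, ratio 0.47), Ccnd2 (92.6 and 45 CPM, 0.486), Sfrp1 (27.1 and 10.4 CPM, 0.385) and Foxm1 (8.64 and 5.2 CPM, 0.603). Of these, Mycn and Ccnd2 drive the progenitor cell cycle, and Foxm1 is a mitotic transcription factor. The higher gene was Scube2, a secreted protein that helps release the ligand (33.9 and 56.6 CPM, ratio 1.67). The median log2 ratio of the 39 was 0.01, against -0.02 over all genes, but the parts of the list differed. It was -0.89 for the 6 targets known from granule progenitors, of which 4 were lower by 1.5-fold. For the 28 receptors and ciliary proteins it was 0.02, and for the 5 genes of ligands and their release 0.16.

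Within GNP-like nuclei 5 of 29 were lower and 2 higher, shares near those of all genes there (15.8% and 9.17%). Mycn stood at 65.5 and 31.9 CPM (ratio 0.487, 0.259 to 0.846), whereas Ccnd1 (92.5 and 88.9 CPM, 0.961) and Ccnd2 (299 and 280 CPM, 0.939) were not distinguishable between the libraries. The other 4 lower genes belong to the cilium or the Smo complex and had few UMIs: Evc2 (50 and 1), Iqce (87 and 6), Rab23 (75 and 6) and Arl13b (49 and 6), and the interval for Arl13b held 1. Sufu, the cytoplasmic inhibitor that holds the Gli factors back, was higher, at 102 and 223 CPM (212 and 98 UMIs, ratio 2.19, 1.7 to 2.79). Sfrp1 (139 and 201 CPM, ratio 1.44) was also above control, by less than 1.5-fold, unlike over the whole libraries.

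In Bergmann glia-like nuclei 2 of 30 were lower and 3 higher, against 4.32% and 5.59% of all genes. Among the lower was Ccnd2 (111 and 45.3 CPM, ratio 0.406). The higher genes included Scube2 (284 and 438 CPM, 1.54) and Efcab7 (16 and 70 UMIs, 2.13). In Purkinje cell-like nuclei, the source of the ligand, Scube1 (32 and 36 UMIs, ratio 0.55), Ccnd2 (0.564) and Mycn (0.593) were lower among 36, and Bmi1 was higher (12 and 39 UMIs, 1.59, interval 0.815 to 3.33), against 4.4% and 2.32% of all genes. In GN-like nuclei Disp1, which exports the ligand, was the 1 of 34 past the fold (113 and 74 UMIs, ratio 0.613), against 3.65% of all genes lower and 3.39% higher.

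Genes with the most similar pattern were sought among 10642 genes by the Pearson correlation of log2(CPM + 5) over the 9 named classes of control, which share 1 library. For Shh the first was Skor2 (r = 0.98 in control, 0.95 over the classes of the cKO-labelled library). Slc17a8 (0.98 and 0.92) and Gm6209 (0.98 and 0.87) followed. Skor2, a Purkinje cell transcription factor, was among the markers used to name the Purkinje cell-like class. Shh had 0 or 1 UMI in every other named class of control, so its pattern rests on 1 class. For Ptch1 the first was Nkd1, an inhibitor of Wnt signalling (0.97 and 0.94), followed by Cyyr1 (0.97 and 0.91) and Lsm8 (0.96 and 0.85). For Gli1 it was Gpc4, a cell-surface proteoglycan (0.98 and 0.96), followed by Nkapd1 (0.97 and 0.69) and Tdrd3 (0.95 and 0.75). Gli3 was matched by the membrane protease gene Mmp14 (0.99 and 0.92), Nup43 (0.97 and 0.76) and Mybpc1 (0.97 and 0.96). For Gli2 the first match, Wdcp, held in control only (0.96 and 0.27), and Adamts1 (0.95 and 0.89) and Prorp (0.95 and 0.63) came next.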

How the data were processed

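Nuclei were counted by the authors with Cell Ranger 7.0.1, per the submitters' processing notes on mm10, and the deposited values are raw UMI counts per gene and nucleus, uncorrected for free RNA. Control held 4857 barcodes and 22325208 UMIs, the cKO-labelled library 6946 and 33726533. Nuclei over 25% mitochondrial UMIs (1 and 5) and the top 0.8% of Scrublet scores per 1000 barcodes (189 and 386, scanpy 1.11.5) were removed here. The automatic doublet threshold marked 1 and 350 barcodes and was not used.

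Clusters came from Seurat 5.3.0 in R 4.3.3 (integration over 30 dimensions, clustering on 20, resolution 0.8), without the 52 pathway genes. Naming asked for 3 or more markers, each seen in 10% of nuclei and 2-fold above the median cluster (pseudocount 5 CPM), and for a mean log2 fold of 1.2 or more; the rule was set and adjusted once after the clusters had been seen. Because the class names were rebuilt here, values can differ from those of the study for that reason. Other clusters stayed unnamed.

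UMIs were summed per class and library. Intervals are Poisson for levels, conditional binomial for ratios and Clopper-Pearson for shares, all exact at 95%. A count of 0 allows 3 counts. A gene was counted as changed at 1.5-fold with at least 50 UMIs over both libraries. The 10 members were given in named classes with at least 20 nuclei per library. Other pathway genes were given where past the fold, up to 6 per comparison. Ccnd1, Ccnd2 and Sfrp1 in GNP-like nuclei were given in addition, although they did not pass it. Similar patterns were sought among genes with at least 200 control UMIs. The members and lists were chosen with earlier results of these data known. The ratio and its interval were tested on simulated data. Gene positions are from GENCODE on GRCm38; A930032L01Rik lies in Ptch1 on the same strand, and their transcripts cannot be told apart. Alternatives concerned doublets, depth, scaling, clustering, gates and thresholds. Some pathway genes and 1 class enter the counts but are not reported here.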

Additional observations from a re-analysis of the deposited data

How the results depend on the processing

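No paired analysis was possible because each group has 1 library and no result comes from a test. Of 375 alternative ratios of members, 367 stayed within the counting interval of the reported ratio, 6 left it and 2 reversed. The reversals came with clusters weighted as in control, for Ptch1 (1.14) and Hhip (0.975) over whole libraries, where Gli1, Gli2 and Boc also left their intervals. With each nucleus at 1000 UMIs, Boc (0.519) and Hhip (1.44) over whole libraries and Gli2 in GABAergic interneuron-like nuclei (1.07) left theirs. Shh over whole libraries also crossed 1 under the weighting (1.14) and at 1000 UMIs per nucleus (1.24), but within its interval. The causes were not tested. Boc in GNP-like nuclei ranged from 0.331 to 0.43, Ptch1 from 1.47 to 1.6, Gli2 in GN-like nuclei from 0.23 to 0.334 and Shh in Purkinje cell-like nuclei from 0.515 to 0.585. At 2-fold, members lower numbered 1 over whole libraries (Gli2), 1 in GNP-like nuclei (Boc) and 0 in Purkinje cell-like nuclei, and other pathway genes lower over whole libraries numbered 3. At a minimum of 20 UMIs the lower members numbered 3 in GN-like and 4 in Purkinje cell-like nuclei, and the other pathway genes lower in GNP-like nuclei 8. Lower members in Purkinje cell-like nuclei numbered 2 with each nucleus at 1000 UMIs (Shh and Hhip) and 2 with no doublet removed (Shh and Gli2). With clusters weighted as in control, lower members numbered 1 (Gas1) and other pathway genes 2. Other pathway genes lower in GNP-like nuclei numbered 3 at resolution 0.4, 3 among nuclei with a Pax6 UMI, and 3 among nuclei without UMIs of other types' markers. The last setting, the weighting of GNP-like clusters and the removal of low-depth droplets were chosen after seeing the data. A wider gate on 21 markers left 83 and 8 nuclei and was not used. No cluster could be named parenchymal astrocyte-like, so that comparison has no value. Depth limits Gas1, Shh outside Purkinje cell-like nuclei, and Gli1 within classes.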
